A study of Mus musculus with 6 samples.

Results

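The genes described here encode 7 cyclins and 2 cyclin-dependent kinases (CDKs) of the cell division cycle. They were chosen by name, as the probe sets to which the platform annotation gives exactly 1 gene symbol, that symbol being 1 of 10 names. Of these names 9 had such a probe set: the D-type cyclins Ccnd1, Ccnd2 and Ccnd3, the E-type cyclins Ccne1 and Ccne2, the A-type cyclin Ccna2, the B-type cyclin Ccnb2, and the kinases Cdk1 and Cdk2. Ccnb1 was matched by none and is not analysed here. The 9 genes had 18 probe sets of the 22626 on the array, and are 9 of 12393 genes that could be named.

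RNA came from 6 lines of mouse embryo fibroblasts, which are primary cells grown from embryos, all grown in serum-containing DMEM to 2 passages, with no treatment that differed between them in the labels. The 3 chromosomally unstable lines were BubR1H/H in pairs 9515 and 9938, in which BubR1, a kinase of the mitotic checkpoint, is made from a hypomorphic allele, and CDC20AAA/AAA in pair 10074, whose altered allele of the mitotic activator CDC20 the labels also class as hypomorphic. The 3 stable lines were wild type, BubR1+/+ in pairs 9515 and 9938 and CDC20+/+ in pair 10074; the number shared by 1 unstable and 1 stable title is called a pair. There was 1 array per line, and nothing in the labels tells whether each line is a separate embryo. A p-value here sees only the spread among these 6 cultures, and their small number limits every value.

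D-type cyclins are made in response to growth factors and, with Cdk4 or Cdk6, start the inactivation of the retinoblastoma protein in G1. This releases E2F transcription factors, which drive E-type cyclins, the partners of Cdk2 at the start of S phase, and cyclin A2. Cyclin A2 acts with Cdk2 and Cdk1 through S phase and G2, and B-type cyclins act with Cdk1 in mitosis. Transcripts of the E, A and B classes are known to rise and fall with the cycle, whereas those of D-type cyclins depend more on growth signals. In RNA from a whole culture, fewer cells in a phase and less of a transcript per cell cannot be told apart.

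Cyclins E, A and B had lower values in the unstable member of every pair, while the D-type cyclins lay near 0 or, for Ccnd1, somewhat lower. Averaged over Ccne1, Ccne2, Ccna2 and Ccnb2, the log2 difference, unstable minus stable, was -0.29 in pair 9515, -0.70 in pair 9938 and -0.80 in pair 10074, which is -0.60 ± 0.27 (SD, n = 3 pairs). Averaged over the 3 D-type cyclins it was 0.055, -0.17 and -0.058 in the same pairs, which is -0.056 ± 0.11 (SD, n = 3 pairs). The later cyclins were thus below the D-type cyclins by 0.54 ± 0.20 on the log2 scale (difference -0.54, n = 3 pairs), at -0.34, -0.54 and -0.74 by pair. This value over chosen genes has no test, and it was -0.31 without the unstable line of pair 10074.

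No single gene passed the test across all genes. Of 8382 genes tested with limma, 0% were called at an adjusted p under 0.05, and each of the 9 genes had an adjusted p of 0.999 by limma. With the pair number as a block, which compares each unstable line with the stable line of its number, 0% were called again, and the adjusted p of the 9 genes ran from 0.262 to 0.929 by limma. At an unadjusted p under 0.05 in the fit without the block, 359 of 8382 genes (4.28%) were counted, and 4 of the 9 genes were among them: Ccne1, Ccne2, Ccnb2 and Cdk1, all lower. That direction alone held 246 genes (2.93%), and the opposite one 113 (1.35%). With the block these 4 and Ccna2 had an unadjusted p under 0.05, 5 of 9, beside 6.92% of all genes lower and 5.24% higher at that level. The differences that follow are therefore given as values.

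**Figure D1:**
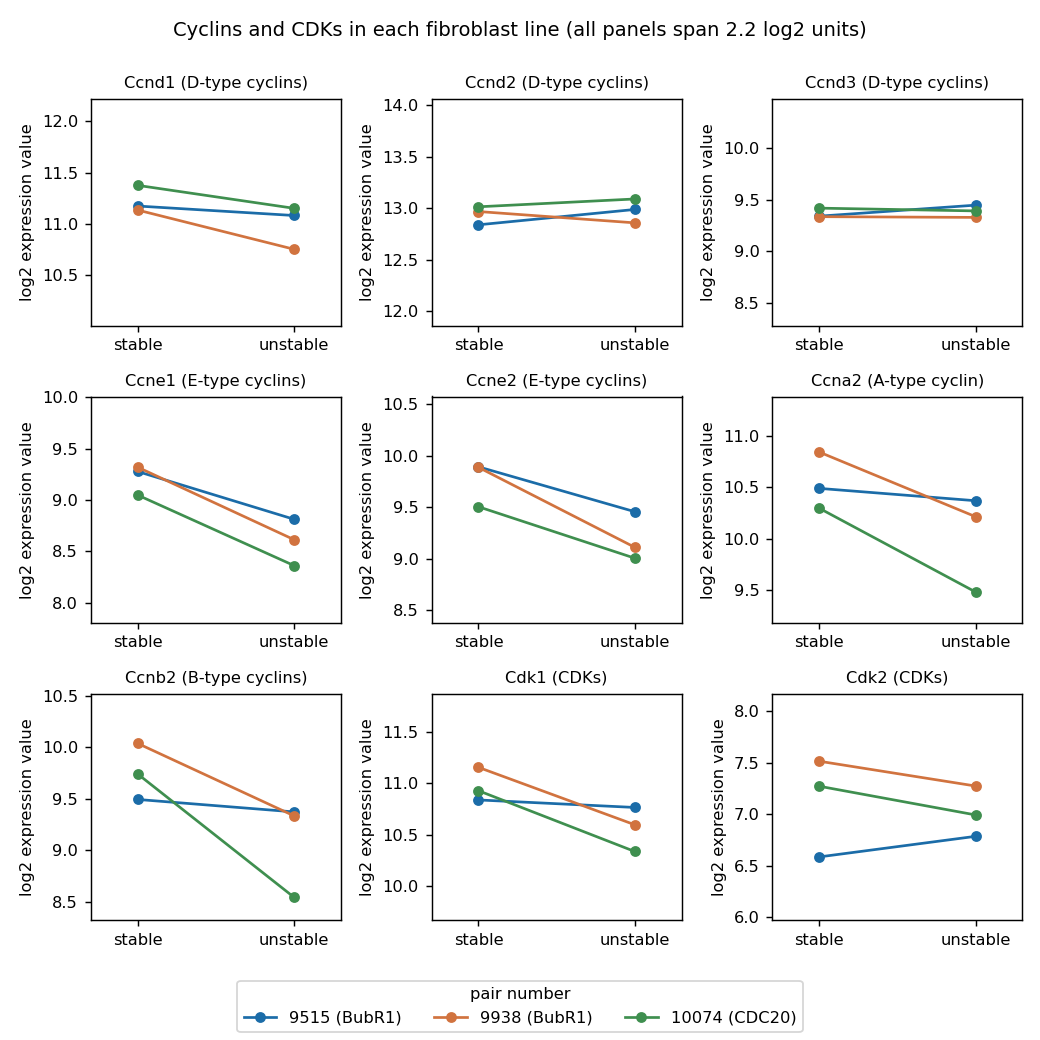
Log2 expression value of each gene in each line, stable on the left and unstable on the right, with a line joining the 2 lines of a pair; every panel spans the same range of log2 units. Ccne1, Ccne2, Ccnb2 and Cdk1 have no unstable line as high as any stable line. The Ccnd2 and Ccnd3 panels are close to flat, and Ccnd1 is somewhat lower in each unstable line.

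Upstream sequences are shown for 3 genes because promoters of G2 and mitotic genes are known for CCAAT boxes, bound by the NF-Y factor, and for the CHR element bound by the MuvB complex, whereas E2F sites mark genes of G1 and S. The RefSeq table of build GRCm38.p6 matched 6 of the 10 names, Ccne1, Ccnb2, Cdk1, Cdk2, Ccnb1 and Ccnd3, the last with 2 start sites. Each window runs from 250 bases before the start site to 30 bases after it. Capitals mark matches, on either strand, to CHR (TTTGAA), to the CCAAT box (CCAAT) or to E2F (TTTCCCGC, TTTGGCGC, TTTCGCGC or TTTGCCGC); no motif overlaps another here. The sequences are Ccnb2 at chr9:70421525-70421804, Cdk1 at chr10:69352883-69353162 and Ccne1 at chr7:38107461-38107740, all on the minus strand and written in the direction of the gene.
Ccnb2: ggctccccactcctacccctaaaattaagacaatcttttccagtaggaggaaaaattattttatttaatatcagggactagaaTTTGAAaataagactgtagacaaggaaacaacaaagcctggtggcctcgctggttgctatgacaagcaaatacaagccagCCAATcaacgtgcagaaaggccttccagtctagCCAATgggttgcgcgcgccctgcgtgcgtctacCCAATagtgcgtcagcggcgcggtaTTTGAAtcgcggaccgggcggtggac
Cdk1: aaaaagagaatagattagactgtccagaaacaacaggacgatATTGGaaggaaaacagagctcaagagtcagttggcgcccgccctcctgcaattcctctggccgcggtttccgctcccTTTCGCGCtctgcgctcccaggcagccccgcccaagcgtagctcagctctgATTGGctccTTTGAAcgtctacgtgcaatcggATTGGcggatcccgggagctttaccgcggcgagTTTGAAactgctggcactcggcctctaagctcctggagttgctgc
Ccne1: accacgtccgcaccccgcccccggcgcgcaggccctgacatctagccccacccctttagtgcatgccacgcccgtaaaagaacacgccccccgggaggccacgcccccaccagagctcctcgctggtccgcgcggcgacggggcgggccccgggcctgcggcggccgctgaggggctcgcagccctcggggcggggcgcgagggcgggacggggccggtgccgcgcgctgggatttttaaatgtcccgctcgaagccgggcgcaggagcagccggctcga

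The windows of Ccnb2 and Cdk1 both held several CCAAT boxes and CHR matches. Ccnb2 held 3 CCAAT boxes, starting at -87, -54 and -21 and so 33 bases apart, and 2 CHR matches, at -167 and 5 from the start site. Cdk1 held 3 CCAAT boxes, all on the other strand, at -208, -80 and -48, the nearer ones 32 bases apart, with CHR matches at -71 and -15 and an E2F match at -131. Ccne1 held none of these exact letters, which says nothing of the factors. Of the others, Cdk2 held 1 CCAAT box and 1 E2F match, Ccnb1 held 2 CCAAT boxes 32 bases apart, and 1 of the 2 windows of Ccnd3 held 1 CCAAT box. Of 32851 windows of this length in the table, 17.2% held a CHR match, 36.1% a CCAAT box and 2.12% an E2F match. At least 2 CHR matches were held by 2.11%, and at least 2 CCAAT boxes by 11.1%. These matches are descriptions of the letters, not sites shown to be used.

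Ccnd1, a cyclin gene induced by growth factors in fibroblasts, was lower by a small amount in each unstable line. By its brightest probe set, 1448698_at, it measured 11.175, 11.136 and 11.376 in stable and 11.083, 10.755 and 11.153 in unstable lines of pairs 9515, 9938 and 10074. Only the unstable line of pair 9938 stood well below the stable lines, and the groups overlapped. The difference was -0.23 (SE 0.14, limma), 1.17-fold lower, with a 95% interval from -0.57 to 0.11. Its other probe sets gave larger differences: 1417420_at was at -0.13, -0.56 and -0.24 in pairs 9515, 9938 and 10074, and 1417419_at at -0.35, -0.60 and -0.27. All 3 probe sets were thus lower in the unstable line of all 3 pairs. Averaged over the 3 probe sets the difference was -0.32. Without the unstable line of pair 9938, that of the brightest was -0.11, and without both lines of that pair -0.16. The genes whose values lay nearest to those of Ccnd1 over the 6 arrays were Vamp3, Lage3 and Slc35e4, at root mean square distances of 0.044, 0.045 and 0.048 between log2 values that were each centred on the gene's own mean; the spread of Ccnd1 itself, measured the same way, was 0.18.

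Ccnd2, a D-type cyclin with 7 probe sets here, was nearly the same in stable and unstable lines. The brightest, 1434745_at, measured 12.839, 12.968 and 13.014 in stable and 12.988, 12.858 and 13.090 in unstable lines of pairs 9515, 9938 and 10074. The ranges of the groups overlapped, and the unstable line was the higher in pairs 9515 and 10074 only. The difference was 0.04 (SE 0.10, limma), with a 95% interval from -0.21 to 0.29. Mean differences of the other 6 probe sets ran from -0.069 for 1416122_at to 0.14 for 1455956_x_at. No Ccnd2 probe set was lower in all 3 pairs, and 1416123_at and 1455956_x_at were higher in all 3. The ending _x_at marks probe sets that may also bind other transcripts. Nearest to Ccnd2 were the proteasome gene Psma4 at 0.021, Ttc1 at 0.033 and the lysosomal gene Lamp1 at 0.034, beside a spread of 0.087 of Ccnd2 itself.

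Ccnd3, the third D-type cyclin, had the least spread over the lines of the 9 genes. It measured 9.341, 9.336 and 9.419 in stable and 9.448, 9.329 and 9.392 in unstable lines of pairs 9515, 9938 and 10074. The groups overlapped, and the pair differences were 0.11, -0.007 and -0.027. The difference was 0.02 (SE 0.085, limma), with a 95% interval from -0.18 to 0.23. Cdk4, a kinase partner of the D-type cyclins that falls outside the rule for named genes and was singled out after its values were seen, differed by -0.09 (SE 0.13). Cdk6, the other partner, did not pass the filter on low values.

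**Figure D2:**
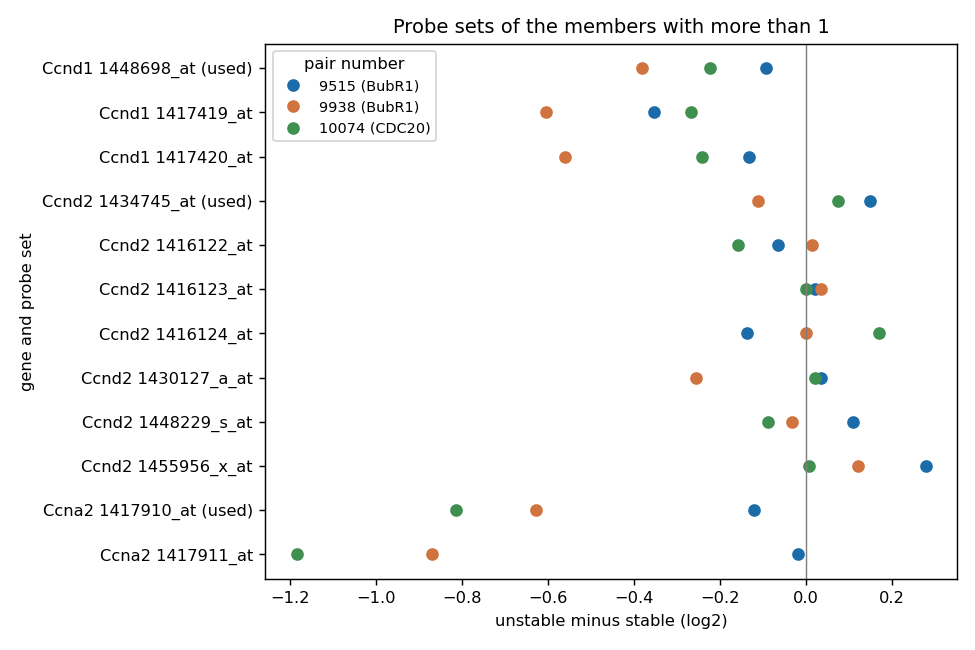
Unstable minus stable log2 difference in each pair for every probe set of Ccnd1, Ccnd2 and Ccna2, the genes with more than 1; the brightest probe set, used for the gene, is marked. All Ccnd1 and Ccna2 points are below 0, and those of the 7 Ccnd2 probe sets lie on both sides of it.

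Ccne1, 1 of the 2 cyclin E genes, was lower in each unstable line by similar amounts. It measured 9.277, 9.319 and 9.048 in stable and 8.813, 8.615 and 8.363 in unstable lines of pairs 9515, 9938 and 10074. Every unstable line was below every stable line. The pair differences of -0.46, -0.70 and -0.69 correspond to 1.38-fold, 1.63-fold and 1.61-fold lower levels. The mean was -0.62 (SE 0.15, limma), with a 95% interval from -0.98 to -0.26.

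Ccne2, the other cyclin E gene, gave much the same picture. It measured 9.894, 9.889 and 9.506 in stable and 9.458, 9.112 and 9.006 in unstable lines of pairs 9515, 9938 and 10074. The groups did not overlap, although the stable line of pair 10074 was only just above the unstable line of pair 9515. The pair differences were -0.44, -0.78 and -0.50, with a mean of -0.57 (SE 0.17, limma). Among the 8382 genes tested, Ccne2 was the gene nearest to Ccne1, at a distance of 0.072, beside a spread of 0.35 of Ccne1 itself. The next nearest were Pkmyt1, a kinase that inhibits Cdk1, at 0.074 and the centromere gene Cenpk at 0.083.

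Ccna2, the cyclin of S phase and G2, was lower in each unstable line but by amounts that differed between pairs. By its brighter probe set it measured 10.490, 10.843 and 10.297 in stable and 10.370, 10.215 and 9.483 in unstable lines of pairs 9515, 9938 and 10074. The groups overlapped, because the unstable line of pair 9515 was above the stable line of pair 10074. The pair differences were -0.12, -0.63 and -0.81, with a mean of -0.52 (SE 0.27, limma), and without the unstable line of pair 10074 the difference was -0.25. The second probe set, 1417911_at, gave -0.017, -0.87 and -1.18, so the difference in pair 9515 was close to 0 by it and those in the other pairs were larger. The genes nearest to Ccna2 over the 6 arrays were D17H6S56E-5 at a distance of 0.054, Cenpq at 0.069 and the lamin gene Lmnb2 at 0.072, beside a spread of 0.41 of Ccna2 itself.

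Ccnb2, a mitotic cyclin, had the largest single difference of the 9 genes. It measured 9.493, 10.038 and 9.741 in stable and 9.372, 9.334 and 8.543 in unstable lines of pairs 9515, 9938 and 10074. No unstable line reached a stable line, and the CDC20AAA/AAA line was lowest by far. The pair differences were -0.12, -0.70 and -1.20, that is 1.09-fold, 1.63-fold and 2.29-fold lower, with a mean of -0.67 (SE 0.27, limma). Without the unstable line of pair 10074 the difference was -0.40, and without both lines of that pair -0.41. In pair 10074 only 1.09% of all genes tested had a lower difference than Ccnb2, whereas in pair 9515 the share was 24.7%.

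Cdk1, the kinase that B-type cyclins activate, followed the same order of pairs with smaller amounts. It measured 10.839, 11.156 and 10.929 in stable and 10.766, 10.598 and 10.338 in unstable lines of pairs 9515, 9938 and 10074. The groups did not overlap, with the 2 lines of pair 9515 next to each other at the boundary. The pair differences were -0.073, -0.56 and -0.59, with a mean of -0.41 (SE 0.15, limma). The nearest genes were Ezh2, a histone methyltransferase, at a distance of 0.053, the replication and checkpoint gene Topbp1 at 0.060 and the zinc transporter Slc30a1 at 0.061, beside a spread of 0.26 of Cdk1 itself.

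Cdk2, the partner of cyclins E and A, varied more between pairs than between groups. It measured 6.584, 7.514 and 7.271 in stable and 6.784, 7.273 and 6.992 in unstable lines of pairs 9515, 9938 and 10074. Both lines of pair 9515 were below the other 4 lines, and the groups overlapped. The pair differences were 0.20, -0.24 and -0.28, with a mean of -0.11 (SE 0.27, limma) and a 95% interval from -0.75 to 0.54. It had 1 probe set, of the kind that reads several transcripts of a gene.

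**Figure D3:**
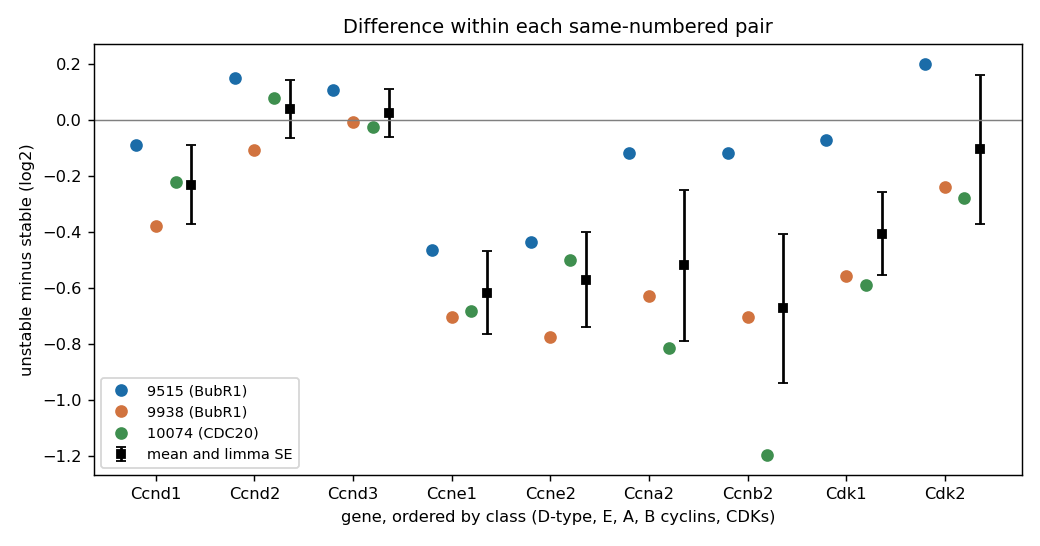
Unstable minus stable log2 difference of each gene in each pair (circles), with the mean over the groups and its limma standard error (squares). Ccne1 and Ccne2 lie at or below -0.44 in all 3 pairs, whereas Ccna2, Ccnb2 and Cdk1 lie between -0.12 and -0.073 in pair 9515 and at or below -0.56 in the others.

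Of the 9 genes, 7 were lower over the group means, beside 52.1% of all genes tested, and 6 were lower in all 3 pairs, beside 19.3% of all genes. These 6 were Ccnd1, Ccne1, Ccne2, Ccna2, Ccnb2 and Cdk1. Groups did not overlap for 4 of the 9, all lower in the unstable lines, beside 6.41% of all genes that were lower and 3.54% that were higher without overlap. The median difference of the 9 genes was -0.41, and that of all genes tested was -0.0087. Without pair 9515, 9938 or 10074, the genes lower in every pair left numbered 8, 6 and 6, beside 33.1%, 29.9% and 27.8% of all genes.

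The classes differed in how the pairs ranked. In pair 9515 the E-type cyclins averaged -0.45, with Ccne1 and Ccne2 lower than all but 2.34% and 2.76% of genes, while Ccna2, Ccnb2 and Cdk1 were at -0.12, -0.12 and -0.073, where 24.9%, 24.7% and 33.4% of genes were lower. In pair 9938 the E-type cyclins averaged -0.74, beside -0.63 for Ccna2 and -0.70 for Ccnb2. In pair 10074 the order was turned, with -0.59 for the E-type average, -0.81 for Ccna2 and -1.20 for Ccnb2. The E-type average minus the average of Ccna2 and Ccnb2 was -0.33, -0.075 and 0.41 in the pairs 9515, 9938 and 10074. With 1 or 2 genes a class and 1 pair of lines each, these values have no test.

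**Figure D4:**
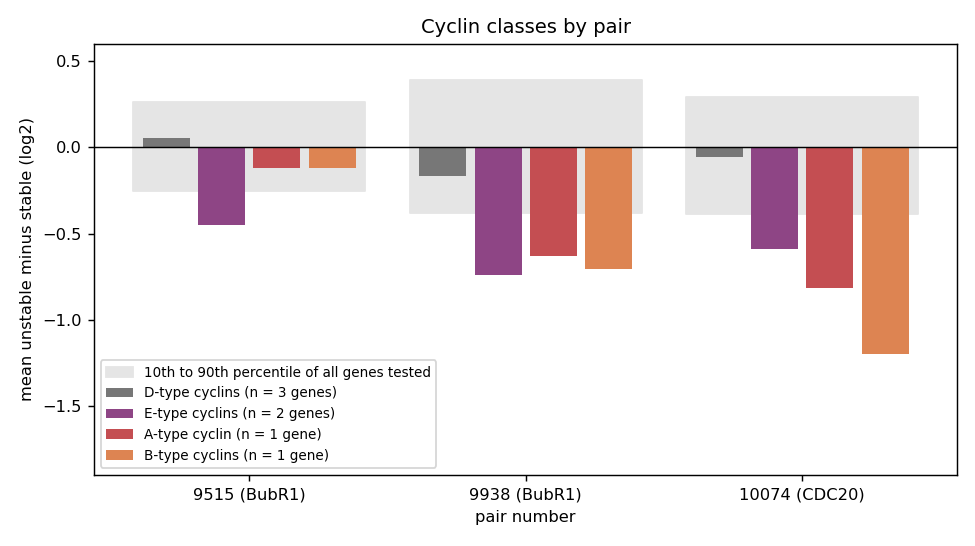
Mean unstable minus stable log2 difference of each cyclin class in each pair (bars), over grey bands from the 10th to the 90th percentile of all genes tested in that pair. D-type bars stay within the band in all 3 pairs, E-type bars fall outside it in all 3, and the A-type and B-type bars fall outside it in pairs 9938 and 10074.

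The BubR1 lines alone, 2 BubR1H/H against 2 BubR1+/+, showed the E-type cyclins lowest. In the model with 4 genotypes, Ccne2 differed by -0.61 (SE 0.16) and Ccne1 by -0.58 (SE 0.12), followed by Ccnb2 at -0.41 (SE 0.22), Ccna2 at -0.37 (SE 0.17), Cdk1 at -0.32 (SE 0.16) and Ccnd1 at -0.24 (SE 0.15). Ccnd2, Ccnd3 and Cdk2 were at 0.02, 0.05 and -0.02. By limma 0% of 8382 genes were called, and the adjusted p of all 9 genes was 1.0; Ccne1 and Ccne2 had an unadjusted p under 0.05, both lower, beside 1.67% of all genes lower and 1.48% higher at that level. The BubR1 difference minus the CDC20 difference was 0.79 (SE 0.38) for Ccnb2 and 0.44 (SE 0.29) for Ccna2, against 0.10 (SE 0.21) for Ccne1 and -0.11 (SE 0.27) for Ccne2. None of the 9 passed this test of the difference between loci, which called 0% of genes by limma, and 0 of the 9 had an unadjusted p under 0.05, beside 0.799% lower and 0.787% higher of all genes. It rests on 1 CDC20 pair.

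Of the other cyclins and CDKs, most of which act in transcription or outside the cycle, 23 of 33 listed genes were tested and their median difference was 0, beside -0.0087 over all genes. Over the group means 11 were lower, beside 52.1% of all genes, 11 higher and Ccnl2 at 0, and 0 passed the test. At an unadjusted p under 0.05 by limma without the block, 2 were lower and 1 higher, beside 2.93% and 1.35% of all genes. Ccnf, an F-box protein with a cyclin domain that is highest in G2, was at -0.30, -0.86 and -0.73 in pairs 9515, 9938 and 10074, with a mean of -0.63 (SE 0.25). Ccng2, a cyclin linked to withdrawal from the cycle, was at 0.33, 0.98 and 0.28, with a mean of 0.53 (SE 0.19). Ccnk, a partner of transcriptional CDKs, differed by -0.24 (SE 0.095), and Cdk5, a kinase best known from neurons, by 0.20 (SE 0.14).

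A list of CDK phosphatases, inhibitory kinases, Cks subunits and other CDK cofactors had 9 genes. All were lower over the group means, beside 52.1% of all genes, and their median was -0.32. In all 3 pairs 5 of them were lower, beside 19.3% of all genes, and 0 passed the test. Those 5 were the phosphatases Cdc25a, Cdc25b and Cdc25c and the kinases Wee1 and Pkmyt1, while Cks1b, Cks2, Mnat1 and Cdc37 were above 0 in at least 1 pair. Cdc25a, which activates Cdk2 complexes, was at -0.31, -0.43 and -0.37 in pairs 9515, 9938 and 10074, with a mean of -0.37 (SE 0.084). Cdc25b and Cdc25c, which activate Cdk1, differed by -0.61 (SE 0.23) and -0.72 (SE 0.28), and the inhibitory kinase Pkmyt1 by -0.51 (SE 0.18). Wee1, an inhibitory kinase outside the rule for named genes, differed by -0.32 (SE 0.23). Activators of CDKs and the inhibitory kinases thus had lower values alike.

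Of the CDK inhibitors, 5 of 7 were higher over the group means, with a median of 0.15 and 0 past the test. Of all genes tested, 52.1% were lower over the group means. In all 3 pairs 4 were higher, beside 16.9% of all genes. Cdkn2a, the locus of p16 and p19Arf, differed by 0.38 (SE 0.21) and Cdkn1a, which encodes p21, by 0.15 (SE 0.12). Cdkn1c and Cdkn2b, outside the rule for named genes, were also higher in all 3 pairs. They differed by 0.65 (SE 0.54) and 0.29 (SE 0.27). The Ink4 genes Cdkn2d and Cdkn2c were at -0.51 (SE 0.26) and -0.41 (SE 0.27), with Cdkn2c at 0.23, -0.49 and -0.97 in pairs 9515, 9938 and 10074.

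Among the E2F and pocket proteins, 8 of 10 were lower over the group means, beside 52.1% of all genes. In all 3 pairs 6 were lower, beside 19.3% of all genes, and 0 passed the test. Their median was -0.19. E2f8, a late E2F, differed by -0.76 (SE 0.27), the pocket protein gene Rbl1 by -0.61 (SE 0.26) and the E2F partner Tfdp1 by -0.23 (SE 0.12). Rbl2, the pocket protein of resting cells, was at 0.50, 0.49 and 0.16 in pairs 9515, 9938 and 10074, with a mean of 0.38 (SE 0.13). Of 8 genes of FoxM1, B-Myb, MuvB and NF-Y, 4 were lower over the group means, beside 52.1% of all genes, and 4 higher. Their median was -0.14, and 0 passed the test. Foxm1 differed by -0.74 (SE 0.20) and Mybl2, the gene of B-Myb, by -0.71 (SE 0.28), while the NF-Y subunits Nfyc and Nfya were at -0.29 (SE 0.10) and 0.11 (SE 0.089).

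Of 11 tested parts of the ligases that destroy cyclins, 7 were lower over the group means, beside 52.1% of all genes, and 4 higher. Their median was -0.044, and 0 passed the test. Cdc20, the mutated gene of pair 10074, was at -0.103, -0.807 and -0.805 in pairs 9515, 9938 and 10074, with a mean of -0.57 (SE 0.20). Its difference in the BubR1 pair 9938 was thus about that in pair 10074. The ubiquitin-conjugating enzyme Ube2c differed by -0.40 (SE 0.22), Ube2s by -0.23 (SE 0.16) and Anapc11 by -0.19 (SE 0.13). In pair 9515 the same genes, in this order, were at 0.004, 0.02 and -0.014. Anapc11 was at -0.042 in pair 9938 and at -0.52 in pair 10074. Mitogen-induced early genes had 8 of 12 lower over the group means, beside 52.1% of all genes. Their median was -0.12, and 0 passed the test. Fosl1, a partner of Jun, was at -0.45, -1.93 and -0.10 in pairs 9515, 9938 and 10074. Fos, Ier2 and Myc differed by -0.28 (SE 0.16), -0.17 (SE 0.11) and -0.27 (SE 0.19). In pair 9515 they were above 0, at 0.11, 0.031 and 0.18. The proliferation markers, like the other lists, were chosen with earlier results of these data known, so their count is not an independent test. All 17 tested markers were lower in all 3 pairs, beside 19.3% of all genes, with 0 past the test. Their medians were -0.18, -0.54 and -0.73 by pair. Among them were Mcm5 at -0.73 (SE 0.23), Top2a at -0.56 (SE 0.18), Tk1 at -0.76 (SE 0.28) and Rrm1 at -0.49 (SE 0.18).

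**Figure D5:**
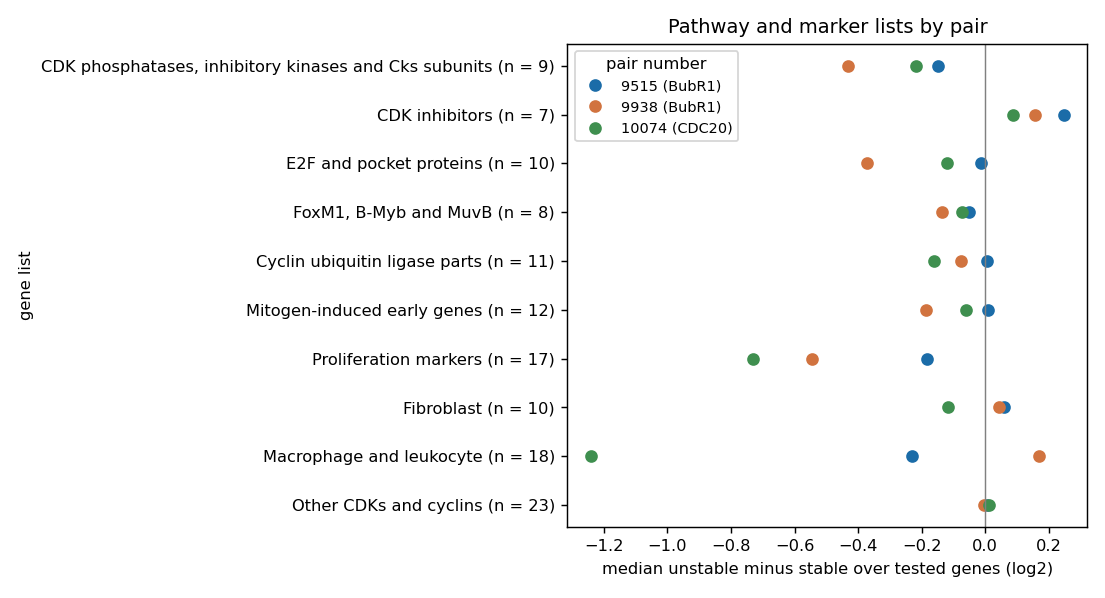
Median unstable minus stable log2 difference over the tested genes of each list with at least 5, in each pair. Medians of proliferation markers lay at -0.18, -0.54 and -0.73 in pairs 9515, 9938 and 10074, CDK inhibitors had medians above 0 in all 3 pairs, and macrophage markers were furthest below 0 in pair 10074.

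The cultures held the transcripts of fibroblasts and also those of macrophages. All 10 fibroblast markers passed the filter, with a median difference of 0.016, among them Col1a1 at -0.13 (SE 0.10) and Pdgfrb at 0.11 (SE 0.099). Of 19 macrophage and leukocyte markers 18 passed, all but Itgam, and none was at 0. Their summed linear level was 8780 in the stable and 6674 in the unstable line of pair 9515, 33990 and 37450 in pair 9938, and 34870 and 19800 in pair 10074. All 18 were lower over the group means, beside 52.1% of all genes, with a median of -0.36. In all 3 pairs 3 of them were lower, beside 19.3% of all genes. Pair medians were -0.23, 0.17 and -1.24. Beside these medians, the E, A and B cyclins averaged -0.29, -0.70 and -0.80 in pairs 9515, 9938 and 10074, and the part of the macrophage transcripts in the cyclin differences was not tested. Of the 8 epithelial markers 3 passed the filter, as did 1 of 6 endothelial and 1 of 6 skeletal muscle markers. Bub1b, which encodes BubR1, was at -1.66, -2.08 and -0.62 in pairs 9515, 9938 and 10074, so in the BubR1H/H lines as their label has it, and also below its stable line in the CDC20AAA/AAA line. Array medians lay between 6.156 and 6.196.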

How the data were processed

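Transcripts of 6 fibroblast lines were measured on 1 Affymetrix array each, from amplified, biotin-labelled RNA, per the labels' protocols. The deposited values are log2 probe set values that the authors made with GCRMA 2.28.0 in R 2.15.3, per the submitters' processing notes. This method subtracts a background modelled on probe sequence and brings all arrays to 1 distribution, which removes overall differences in brightness. Values ran from 0.922 to 14.393 and were not transformed again. Scanner files were not used here.

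Of 22626 probe sets, 20380 had 1 symbol, 691 several and 1555 were not listed; 0 symbols changed through the Entrez identifiers, of which 20351 were found in the RefSeq table of GRCm38.p6. A gene took its probe set with the highest mean, and was tested where 3 or more arrays reached a log2 value of 4, which left 8382 genes. The unstable minus stable difference was fitted with limma 3.58.1 in R 4.3.3 (two-sided, Benjamini-Hochberg adjusted over all genes, threshold 0.05), without a block. BubR1 and locus contrasts came from a model with 4 genotypes. An exact permutation test of 3 lines against 3 has a smallest p of 0.1, so none was used. Differences are log2, folds are 2 to their power, and SDs are over lines or pairs.

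Deviations from the group means correlated at 0.812, 0.681 and 0.602 for same-numbered lines and at -0.673 to 0.153 for others. The title numbers were therefore taken as pairs. Deviations of 3 lines from their mean add to 0, so high same-number values push the others down, and this contrast is partly built in. The genes and lists were chosen with earlier results of these data known. Named were all member genes, up to 4 genes of each list by p, and the 3 nearest genes to Ccnd1, Ccnd2, Ccne1, Ccna2 and Cdk1. The fits were also run on simulated data with known differences, and the outcome is not given here. How well they recover differences of the sizes reported is therefore not shown. Alternatives were the block, filters, probe set means, renormalization, array weights, a robust prior with an intensity trend, and left-out lines or pairs.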

Additional observations from a re-analysis of the deposited data

Results flagged for a closer look

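Of the 33 tested marker genes, 11 lay on one side of 0 in both BubR1 pairs and on the other side in the CDC20 pair, as did 1608 of all 8382 genes tested (19.2%). Among the 11 were 5 fibroblast, 4 macrophage and leukocyte and 2 epithelial markers, of which the rule for named genes gives 4. The fibroblast matrix gene Dcn was at 1.39, 0.60 and -0.17 in pairs 9515, 9938 and 10074, and its BubR1 minus CDC20 difference was 1.16 (SE 1.02). The growth factor receptor gene Pdgfra was at 0.32, 0.098 and -0.13, with a difference of 0.34 (SE 0.57). The keratin gene Krt18 was at 0.35, 0.052 and -0.59, with a difference of 0.79 (SE 0.21). Krt8 was at 0.29, 0.21 and -0.60, with a difference of 0.85 (SE 0.76). In pair 10074 Krt8 measured 3.447 in the stable and 2.847 in the unstable line. Both values are below the log2 value of 4 that the filter uses. Lum, a fibroblast matrix gene outside that rule and chosen after its values were seen, was at 0.55, 0.17 and -0.89, with a difference of 1.25 (SE 0.28). None of these 5 passed limma's test of the difference between the loci (adjusted p = 0.999 or above). No cyclin or CDK of the 9 had this pattern, and groups of 3 lines are too small to look for single outlying lines.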

How the results depend on the processing

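In the comparison of unstable with stable lines, the BubR1 comparison and that between loci, the count of genes past the threshold was 0 under every alternative run, the replicate block included. The block cannot change a difference here, because each pair holds 1 unstable and 1 stable line, and it changed no call. With it the later cyclins minus the D-type cyclins stayed at -0.54 by design. With all probe sets of a gene averaged, this difference was -0.52, with quantile renormalization -0.54 and with class medians -0.62. Leaving out lines or pairs it ran from -0.67 to -0.31, the end nearest 0 being without the unstable line of pair 10074. Differences of Ccne1, Ccne2, Ccna2, Ccnb2, Cdk1 and Ccnd1 kept their sign under every alternative, of which block, filters and robust prior cannot alter them. Those of Ccnd2 ran from -0.017 to 0.11, those of Ccnd3 from -0.017 to 0.055 and those of Cdk2 from -0.38 to 0.089 when lines or pairs were left out, each changing sign; the cause was not tested. The count of members with groups that did not overlap was 5, 5 and 6 without pair 9515, 9938 or 10074, beside 19.2%, 14.8% and 16.4% of all genes; this alternative was chosen after seeing the data. Ccnb2, Cdk1 and Cdk2 have 1 probe set each, as do Ccnd3, Ccne1 and Ccne2, so their sizes could not be set against another.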
